A study of Mus musculus with 8 samples.

Results

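The mitochondrial carriers of the SLC25 family, encoded by the Slc25a genes, were followed in brown adipose tissue of mice with and without a deleted Abhd15 gene. Members were all genes with a symbol made of Slc25a and a number that had a probe set of their own, with pseudogene symbols left out and the uncoupling protein genes (Ucp1 to Ucp3) not counted. The rule gave 46 members among 22180 genes. No member had more than 1 probe set named for it alone.

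Brown fat came from male C57BL/6J mice, 3 wild type (WT) and 5 with the label Abhd15 KO (called KO-labelled below), 1 mouse per array. All were fasted overnight and then refed chow for 1 h. The stated age was 14 weeks. The study set out to compare brown fat expression with and without ABHD15, a hydrolase-fold protein of adipocytes, in this refed state. Which part of Abhd15 was deleted, and in which cells, was not given in the sources used here, nor were litter, cage, harvest day or scan date. The Abhd15 probe set read 5.87, 5.94 and 6.23 in the WT arrays and 6.32, 6.14, 5.68, 6.35 and 6.13 in the KO-labelled arrays, so it was not lower in these (0.11 log2, 95% interval −0.27 to 0.49), and every direction below rests on the labels. A probe set outside the deleted part would check nothing.

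SLC25 proteins sit in the inner mitochondrial membrane, apart from a few members in other membranes, and move nucleotides, phosphate, carboxylic acids, amino acids, cofactors and ions between the cytosol and the matrix. The ADP/ATP, phosphate and carnitine/acylcarnitine carriers serve oxidation of fat, and the citrate carrier exports carbon for fatty acid synthesis, a pair of pathways that brown fat runs at high rates. UCP1, which lets protons bypass ATP synthase and so makes heat, belongs to the same protein family.

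All values are log2 signals, on which a difference of 1 is a doubling. Probe sets differ in brightness for reasons other than RNA amount, so levels are compared between arrays and never between genes. A dim limit of 2.88 was taken from olfactory and vomeronasal receptor probe sets, and a gene above it in at least 3 arrays was tested. That left 39 members, of which 35 were above the limit in all 8 arrays. The 7 not tested were Slc25a2, Slc25a13, Slc25a21, Slc25a31, Slc25a41, Slc25a43 and Slc25a54, which read between 1.51 and 3.11 in all arrays. Slc25a13, the aspartate/glutamate carrier also called citrin, read 2.45, 2.93 and 3.11 in WT and 2.53, 2.25, 2.70, 2.64 and 2.44 in the KO-labelled arrays, near the limit throughout. Slc25a31, an ADP/ATP carrier known from testis, was at or below 2.63 in every array.

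Markers of brown fat were present. Of 8 brown adipocyte markers listed, 7 had a probe set and all 7 were above the dim limit in every array, as were 8 of 8 general adipocyte markers. Of 6 white adipocyte markers listed, 5 had a probe set and 3 were above the limit in every array. Presence alone thus does not tell brown from white fat. Of those 5, 3 were lower in the KO-labelled arrays (median −0.30), 1 with an unadjusted limma p under 0.05 (Retn) and 0 past the adjusted threshold. Skeletal muscle markers were also present, 22 of 26 above the limit in all arrays, and varied widely: their mean, relative to all arrays, ranged from −1.18 to 1.70 in WT and from −1.76 to 0.92 in the KO-labelled arrays. The ranges of the macrophage mean were −0.12 to 0.51 and −0.65 to 0.19, of the endothelial mean −0.26 to 0.10 and −0.16 to 0.26, and of the fibroblast mean −0.22 to 0.54 and −0.46 to 0.46. Of the macrophage markers 9 of 10 were lower in the KO-labelled arrays (median −0.32, 2 with an unadjusted limma p under 0.05), of the fibroblast markers 5 of 6 were lower (−0.13) and of the endothelial markers 8 of 8 were higher (0.16), with 0 past the adjusted threshold in each list. Over all genes tested, 51.7% were higher in the KO-labelled arrays and 4.01% had an unadjusted limma p under 0.05. Markers of 1 cell type can vary together, so these counts are not separate observations. The part of the markers in the differences of the carriers was not tested. In bulk tissue fewer cells of a type and less RNA per cell cannot be told apart.

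No Slc25a gene passed the test between the groups. With limma, 0 of 39 members had an adjusted p under 0.05, beside 0 of all 13246 genes tested (0%, smallest adjusted p 0.9997), and 0 of 39 had an unadjusted p under 0.05, beside 531 genes (4.01%). Of the members 21 were higher and 18 lower in the KO-labelled arrays (53.8% higher, beside 51.7% of all genes), with differences from −0.41 to 0.46. Their median difference was 0.02, against 0.01 over all genes, and their median absolute difference 0.12, against 0.11. The unadjusted 95% intervals had a median half-width of 0.35 log2 for the members, so smaller differences were mostly not detectable even before adjustment. The threshold adjusted over all genes asks for more. Slc25a33 at 0.46 and Slc25a12 at −0.41 had an adjusted p of 0.9997 by limma.

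**Figure D1:**
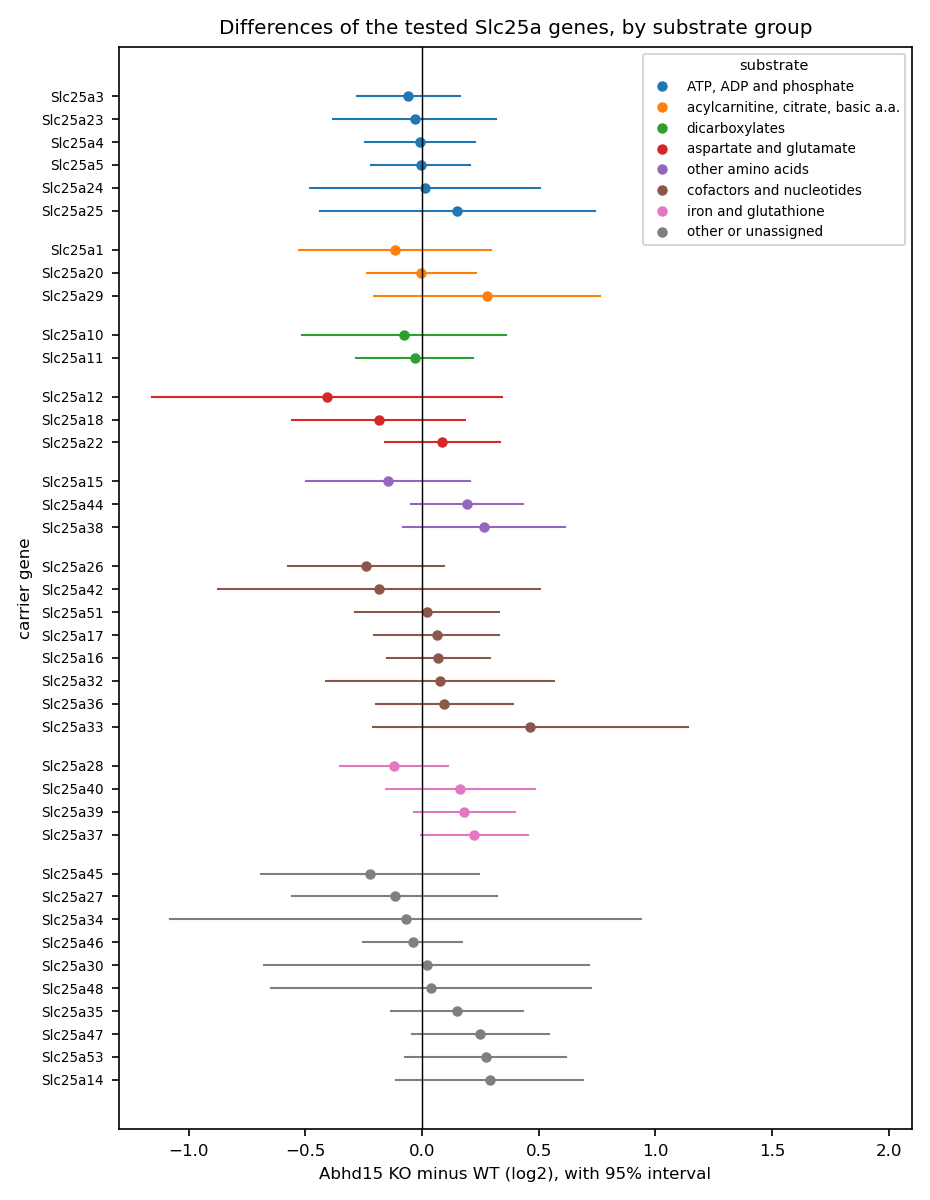
Each point is the difference between the KO-labelled arrays (n = 5) and WT (n = 3) for 1 tested carrier gene, in log2 units on the horizontal axis, and the line is its moderated 95% interval. Genes are grouped by substrate on the vertical axis, and all 39 intervals cross 0.

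The main carriers of ADP, ATP and phosphate had small differences between the groups. Of the 6 tested, 2 were higher and 4 lower, with a median of −0.01 and 0 past the threshold. Slc25a5 (ANT2), an ADP/ATP exchanger, read 10.79, 10.92 and 10.91 in WT and 10.89, 10.83, 10.84, 10.90 and 10.88 in the KO-labelled arrays, a difference of −0.01 (−0.22 to 0.21). The groups lay on top of each other, and its SD within groups of 0.05 was the smallest of the 39 members. Slc25a4 (ANT1), the isoform known from heart and skeletal muscle, read 9.07, 9.27 and 9.13 and 9.16, 9.06, 9.22, 9.23 and 9.06, a difference of −0.01 (−0.24 to 0.23). Slc25a3, the phosphate carrier, read 8.14, 8.30 and 8.25 and 8.17, 8.13, 8.16, 8.26 and 8.13 (−0.06, −0.28 to 0.16). The intervals of these 3 genes reached no further than −0.28 and 0.23. Slc25a4 and Slc25a5 are close paralogs and Slc25a5 also has an annotated pseudogene, so cross-hybridization between them is possible and was not tested.

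The calcium-sensitive ATP-magnesium/phosphate carriers, which set the size of the nucleotide pool in the matrix, varied more between mice. Slc25a25 read 3.24, 4.24 and 3.55 in WT and 4.39, 3.38, 3.70, 3.78 and 3.88 in the KO-labelled arrays (0.15, −0.44 to 0.74). Its mean over all arrays (3.77) was less than 1 log2 above the dim limit. Its highest arrays were WT replicate 2 and KO-labelled replicate 1, 1 in each group. Slc25a23 differed by −0.03 and Slc25a24 by 0.01.

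The carriers of fat oxidation and citrate export did not separate the groups. Slc25a20, the carnitine/acylcarnitine translocase that brings long-chain fatty acids into the matrix, read 10.36, 10.56 and 10.64 in WT and 10.50, 10.57, 10.52, 10.49 and 10.49 in the KO-labelled arrays, a difference of −0.0039 (−0.24 to 0.23; p = 0.946 in an exact permutation test, two-sided). The 5 KO-labelled arrays fell inside the WT range. Slc25a1, the citrate carrier, read 10.72, 11.11 and 10.43 in WT and 10.66, 10.87, 10.83, 10.33 and 10.49 in the others, which differed by −0.11 (−0.53 to 0.30, exact permutation p = 0.571). WT replicate 2 was its highest array and Abhd15 KO replicate 4 its lowest, and its spread of 0.27 within groups was above the 0.09 of Slc25a20. Slc25a29, reported to carry basic amino acids, was above the dim limit in 7 arrays and differed by 0.28 (−0.21 to 0.76).

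Neither tested dicarboxylate carrier passed the test. Slc25a11, the oxoglutarate/malate exchanger of the malate-aspartate shuttle, read 8.89, 9.13 and 8.99 and 9.11, 9.07, 8.92, 8.92 and 8.84 (−0.03, −0.28 to 0.22). Slc25a10, the dicarboxylate carrier, read 4.38, 4.95 and 4.29 and 4.72, 4.39, 4.73, 4.17 and 4.30 (−0.08, −0.51 to 0.36). The groups of Slc25a10 overlapped, with WT replicate 2 above every KO-labelled array and Abhd15 KO replicate 4 below every WT array.

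Genes for iron and glutathione import were 2 of the 3 members whose groups did not overlap, without passing the test. Slc25a37 (mitoferrin-1), which brings iron into the matrix for heme and iron-sulfur clusters, read 5.97, 6.01 and 6.01 in WT and 6.30, 6.24, 6.16, 6.09 and 6.32 in the KO-labelled arrays. Every KO-labelled array was above every WT array. The difference was 0.22 log2, or 1.17-fold (−0.0025 to 0.45, unadjusted p = 0.0521 and adjusted p = 0.9997 by limma, exact permutation p = 0.0357). Slc25a39, which imports glutathione, read 9.09, 9.05 and 9.07 and 9.28, 9.31, 9.30, 9.20 and 9.16, again without overlap, and the groups differed by 0.18 (−0.03 to 0.40, exact permutation p = 0.0357, adjusted p = 0.9997 by limma). In their paralogs the groups overlapped. Slc25a28 (mitoferrin-2) read 7.64, 7.72 and 7.70 and 7.46, 7.57, 7.46, 7.68 and 7.65, with a difference of −0.12 (−0.35 to 0.11). Slc25a40 differed by 0.16 (−0.16 to 0.48). Whether the paralogs differ from each other in their response was not tested.

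Groups without overlap were found in 3 of 39 members, beside 2.78% of all genes tested. The other was Slc25a47, a carrier known from liver, which read 4.08, 3.88 and 4.07 and 4.47, 4.13, 4.44, 4.15 and 4.11 (0.25, −0.04 to 0.54, exact permutation p = 0.107). Its lowest KO-labelled array (4.11) lay only just above its highest WT array (4.08). A test that allows no p below 0.0179, over 56 splits of the arrays, gave 0.0357 for Slc25a37 and for Slc25a39, and neither passed when the fit was adjusted over all genes.

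**Figure D2:**
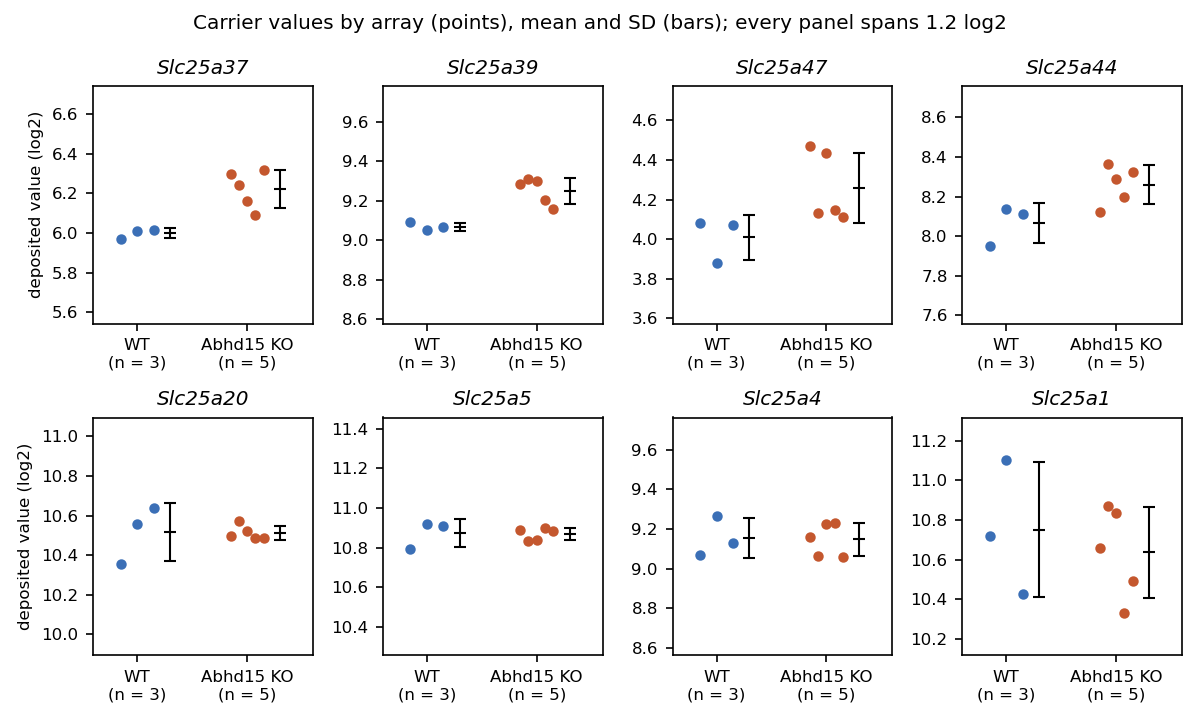
Points are the deposited log2 values of single arrays for 8 carriers, WT (n = 3) in blue and KO-labelled arrays (n = 5) in orange, with the mean and SD at the right of each group. Slc25a37, Slc25a39 and Slc25a47 have no overlap between the groups, Slc25a44 overlaps in 1 KO-labelled array, and Slc25a20, Slc25a5, Slc25a4 and Slc25a1 overlap widely.

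Amino acid carriers had differences of both signs. Slc25a44, which takes branched-chain amino acids into the mitochondria of brown fat, read 7.95, 8.14 and 8.11 in WT and 8.12, 8.37, 8.29, 8.20 and 8.33 in the KO-labelled arrays, a difference of 0.19 (−0.05 to 0.43, exact permutation p = 0.0536). Only Abhd15 KO replicate 1 (8.12) fell within the WT range. Slc25a38, the glycine carrier that feeds heme synthesis, differed by 0.26 (−0.08 to 0.61) and Slc25a15, an ornithine carrier, by −0.15 (−0.50 to 0.20). Slc25a18, a glutamate carrier, read 3.14, 3.34 and 2.93 and 2.91, 3.34, 2.69, 3.02 and 2.78, close to the dim limit (−0.19, −0.56 to 0.19). Its paralog Slc25a22 differed by 0.09 (−0.16 to 0.33).

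Among the 8 carriers of cofactors and nucleotides 6 were higher and 2 lower, with a median of 0.07. Slc25a33, a pyrimidine nucleotide carrier that insulin signalling induces in cultured cells, read 6.89, 6.70 and 7.29 in WT and 6.77, 7.09, 7.32, 7.72 and 8.21 in the KO-labelled arrays (0.46, −0.21 to 1.14, exact permutation p = 0.268). Replicates 3, 4 and 5 of the KO-labelled arrays were above the highest WT array and replicates 1 and 2 were not, and the interval of the difference included 0. Without Abhd15 KO replicate 5 the difference was 0.27. Its paralog Slc25a36 differed by 0.09 (−0.20 to 0.39). Slc25a26, which imports the methyl donor S-adenosylmethionine, read 6.21, 6.13 and 5.87 and 6.10, 5.77, 5.66, 6.00 and 5.61 (−0.24, −0.58 to 0.09), with overlapping groups. The other cofactor carriers lay between −0.18 (Slc25a42) and 0.08 (Slc25a32), with Slc25a51, which carries NAD, at 0.02, the coenzyme A-related carrier Slc25a16 at 0.07 and the peroxisomal Slc25a17 at 0.06.

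Of the 10 tested members with other or unassigned substrates, 6 were higher and 4 lower. Slc25a53 read 2.94, 2.91 and 2.41 in WT and 2.93, 3.16, 3.23, 2.89 and 2.93 in the KO-labelled arrays (0.27, −0.07 to 0.62), and Slc25a45 read 3.91, 4.74 and 4.13 and 4.02, 4.42, 3.90, 3.78 and 4.07 (−0.22, −0.69 to 0.24). The WT mean of Slc25a53 (2.75) lay below the dim limit, and without WT replicate 3 its difference was 0.10. Slc25a14, a brain-type relative of the uncoupling proteins, differed by 0.29 (−0.11 to 0.69), with a WT mean of 3.04 near the limit. Slc25a27, another such relative, differed by −0.12 (−0.56 to 0.32) and Slc25a46, a protein of the outer membrane that acts in mitochondrial dynamics, by −0.04 (−0.25 to 0.17). A probe set shared by Slc25a35 and the neighbouring gene Rangrf read 3.87 to 5.70 in the 8 arrays and was not used, while the probe set of Slc25a35 alone differed by 0.15 (−0.13 to 0.43).

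Slc25a12, the calcium-regulated aspartate/glutamate carrier also called aralar, followed the skeletal muscle transcripts across the mice. It read 6.89, 6.04 and 5.45 in WT and 5.65, 5.16, 5.49, 6.26 and 6.03 in the KO-labelled arrays. The highest array was WT replicate 1, which also had the most muscle signal, and the lowest was Abhd15 KO replicate 2, which had the least. In a limma fit with group and the mean of 26 muscle genes as terms, its slope was 0.45 log2 per log2 unit of the muscle mean (95% interval 0.31 to 0.60, adjusted p = 0.0218). It was the 1 member called, in a fit that called 46 of 13220 genes (0.348%), all 46 with positive slopes, and it stood at rank 38 by p among them. At an unadjusted p under 0.05 there were 2 of 39 members, Slc25a12 and Slc25a38, beside 5.81% of all genes. The order of the 8 arrays was the same for Slc25a12 and for the muscle mean, which held for 6 of the 13220 genes. Pearson's r was 0.96 (exact permutation p = 0.000174) and Spearman's rho was 1.00 (exact permutation p = 4.96e-05, the smallest the 8 arrays allow). Adjusted over all 13220 genes, the exact p of r was 0.0998. Without the 2 arrays farthest from the median muscle mean, WT replicate 1 and Abhd15 KO replicate 2, r was 0.93.

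The slope of Slc25a12 stayed positive but was not called when any 1 of 6 arrays was left out, WT replicates 1 and 3 or Abhd15 KO replicates 2 to 5. Its slope was 0.40 without WT replicate 1 (adjusted p = 0.221 by limma), 0.46 without WT replicate 3 (0.271), 0.51 without Abhd15 KO replicate 2 (0.0858), 0.45 without replicate 3 (0.0515), 0.45 without replicate 4 (0.109) and 0.45 without replicate 5 (0.0656). The number of genes called was 16 without WT replicate 1, 18 without WT replicate 3, 25 without Abhd15 KO replicate 2 and 27 without Abhd15 KO replicate 4. Between the groups Slc25a12 differed by −0.41 (−1.16 to 0.34, exact permutation p = 0.375). With the muscle mean as a covariate that difference was −0.15, and without WT replicate 1 it was −0.03. All 26 muscle genes were lower in the KO-labelled arrays, with a median of −0.54 and 0 past the threshold. These genes can vary together, so they are not 26 separate observations. Their part in the difference of Slc25a12 was otherwise not tested.

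**Figure D3:**
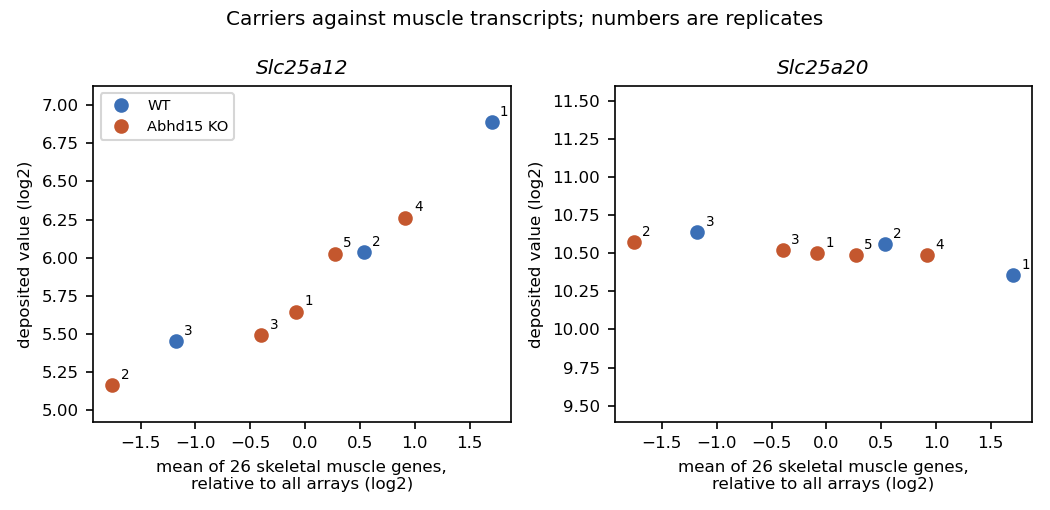
Deposited log2 values of Slc25a12 (left) and Slc25a20 (right) are plotted against the mean of 26 skeletal muscle genes relative to all arrays, in log2 units, with WT in blue, KO-labelled arrays in orange and replicate numbers beside the points. Slc25a12 goes from 5.16 to 6.89 in the order of the muscle mean, and Slc25a20 from 10.64 to 10.36 over the same arrays; both vertical axes span the same range.

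No other carrier was called. The relation was computed for all 39 members, and their median slope was −0.015, against −0.0061 over all genes. Positive slopes were found for 16 of 39 members, beside 47.0% of all genes. Slc25a4, the muscle-type ADP/ATP carrier, had a slope of 0.01 (−0.11 to 0.14, adjusted p = 0.994 by limma). Slc25a38 had a slope of 0.15 (unadjusted p = 0.0258, adjusted p = 0.683 by limma), with r of 0.52 (exact permutation p = 0.188). Slc25a20 was lower where muscle signal was higher, with r of −0.82 (exact permutation p = 0.0133), rho of −0.83 (exact permutation p = 0.0154) and r of −0.72 without WT replicate 1 and Abhd15 KO replicate 2. Slc25a16 did likewise, with r of −0.82 (exact permutation p = 0.0144), rho of −0.83 (exact permutation p = 0.0154) and r of −0.60 without those arrays. Slc25a35 had r of −0.71 (exact permutation p = 0.0460), which was 0.07 without them. Adjusted over all genes the exact p was 0.705 for Slc25a20, 0.723 for Slc25a16 and 0.885 for Slc25a35. By limma the unadjusted p of their slopes was 0.210, 0.340 and 0.146 in that order. The share of all genes with an unadjusted exact p under 0.05 was not counted. The slope of Slc25a20 was −0.07 (−0.18 to 0.04), small beside that of Slc25a12, and a test of the 2 slopes against each other was not made.

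The most variable members differed between mice of the same label. The median SD within groups was 0.21 for the members and 0.23 for all genes tested, and the range among members was 0.05 to 0.75. Slc25a34, of unassigned substrate, varied most and read 6.55, 5.17 and 6.44 in WT and 6.42, 6.78, 4.83, 6.00 and 5.88 in the KO-labelled arrays (−0.07, −1.08 to 0.94). Abhd15 KO replicate 3 was its lowest array and WT replicate 2 the next. Slc25a48, reported to carry choline, read 5.47, 5.71 and 5.54 and 5.89, 6.24, 4.71, 5.32 and 5.89 (0.04, −0.65 to 0.72). Slc25a42, a coenzyme A carrier, read 8.79, 8.61 and 9.29 and 9.23, 9.28, 7.92, 8.53 and 8.61 (−0.18, −0.87 to 0.51). These 3 members were all lowest in Abhd15 KO replicate 3, a pattern picked out after the values were seen. Over the 39 tested members that array was the lowest in 5, fewer than WT replicate 1 (9) and Abhd15 KO replicate 4 (7).

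Abhd15 KO replicate 3 was also the lowest array in 4 of the 7 brown adipocyte markers, Dio2, Ppargc1a, Elovl3 and Cox8b. Dio2, the deiodinase that makes active thyroid hormone in brown fat, read 5.57, 6.63 and 6.80 in WT and 7.27, 7.10, 4.47, 7.42 and 8.32 in the KO-labelled arrays. Ppargc1a, the coactivator that drives mitochondrial genes, read 7.94 in that array, its lowest value, close below WT replicate 1, and 8.54 to 9.09 in the remaining arrays. The mean of 7 brown adipocyte markers, relative to all arrays, was −0.62 in Abhd15 KO replicate 3 and between −0.20 and 0.40 in the other arrays. Dio2, at −2.22 from its own mean, weighed most in that value. Ucp1 (12.52) was also low in that array, just above WT replicate 2 (12.51), and read 12.66 to 12.89 in the rest. Slc25a20 (10.52) of that array stood within the range of the others. Cidea (12.15) was not low in that array, and Prdm16 was lower in Abhd15 KO replicate 1 (4.95, against 5.11). Their part in the values of Slc25a34, Slc25a42 and Slc25a48 was not tested. Slc25a33 was highest in Abhd15 KO replicates 5 and 4, and these arrays were also the highest in Dio2.

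Slc25a30, a carrier related to the uncoupling proteins, read 6.30, 6.57 and 5.49 in WT and 6.74, 5.59, 6.42, 5.77 and 6.19 in the KO-labelled arrays (0.02, −0.68 to 0.71). Like Slc25a25 it was highest in WT replicate 2 and KO-labelled replicate 1. Slc25a23 also had its highest values there (9.60 and 9.72, against 9.19 to 9.52), and Slc25a32, a folate and FAD carrier, its lowest (8.16 and 7.98, against 8.41 to 8.94). Slc25a23 and Slc25a32 were singled out after their values were seen. The same arrays were the lowest in Angptl8, an inhibitor of lipoprotein lipase that feeding induces (7.95 and 7.90, against 10.42 to 10.81), and the highest in the immediate early gene Fos (5.64 and 4.95, against 2.58 to 3.64). Their mean of 6 fibroblast markers was also the highest (0.54 and 0.46, against 0.08 or less in the others), and its part in these values was not tested. Since each group holds 1 such array, leaving out both gave a median difference of 0.06 for the members, with 28 of 39 higher and 0 past the threshold, beside a median of 0.0032 and 50.7% higher over all genes. Over the 39 tested members WT replicate 2 was the highest array in 13 and WT replicate 1 the lowest in 9.

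**Figure D4:**
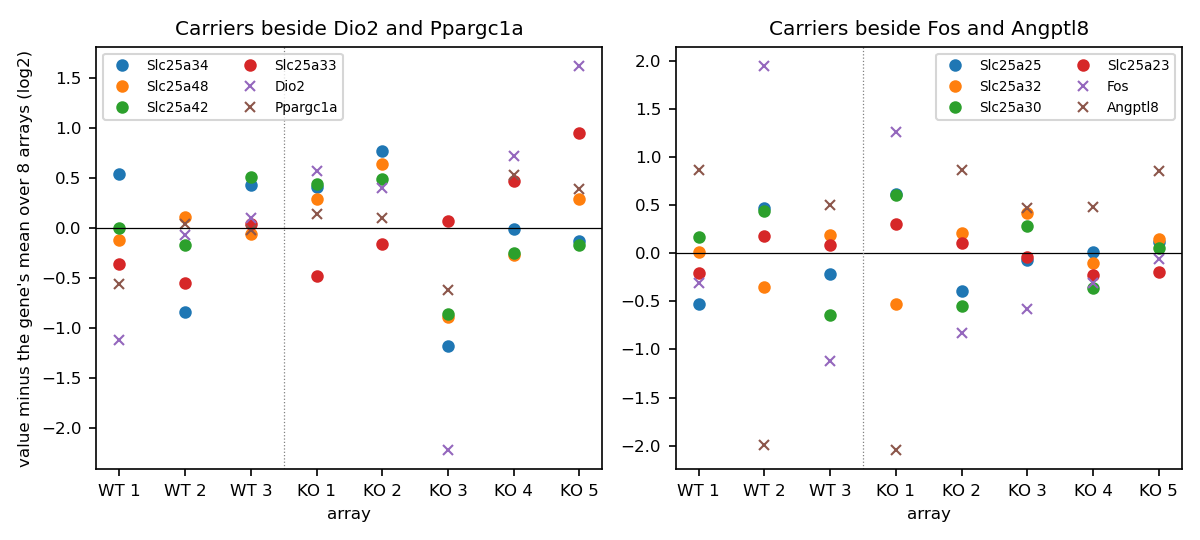
Values of each gene minus its mean over 8 arrays, in log2 units, are plotted by array, with the WT arrays left of the dotted line and the KO-labelled arrays right of it. On the left Slc25a34, Slc25a48, Slc25a42 and Dio2 are lowest in Abhd15 KO replicate 3, and on the right Slc25a25, Slc25a30, Slc25a23 and Fos are highest and Slc25a32 and Angptl8 lowest in WT replicate 2 and KO-labelled replicate 1.

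Promoter sequence is shown for the members that stood out by array, Slc25a12, Slc25a25, Slc25a34, Slc25a42 and Slc25a48, as the 250 bases before a RefSeq transcript start (GRCm38.p6), which were found for 36 of 46 members. Capitals mark matches, on either strand, to the cyclic AMP response element TGACGTCA, the E-box CAGCTG and the MEF2 pattern (CTA, any 4 bases, TAG) known from muscle genes, the estrogen-related receptor pattern TNAAGGTCA, and the GC box GGGCGG. No 2 matches overlap in the windows printed.
Slc25a12: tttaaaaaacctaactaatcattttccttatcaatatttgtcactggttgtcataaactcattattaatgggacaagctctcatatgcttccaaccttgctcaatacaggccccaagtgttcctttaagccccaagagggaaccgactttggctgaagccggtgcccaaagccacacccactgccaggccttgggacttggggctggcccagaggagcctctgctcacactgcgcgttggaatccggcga
Slc25a25: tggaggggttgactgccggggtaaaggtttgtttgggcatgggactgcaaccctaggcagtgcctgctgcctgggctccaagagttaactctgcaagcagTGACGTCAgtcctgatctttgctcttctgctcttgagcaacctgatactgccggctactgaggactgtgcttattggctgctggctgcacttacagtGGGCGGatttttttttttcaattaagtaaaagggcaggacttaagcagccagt
Slc25a34: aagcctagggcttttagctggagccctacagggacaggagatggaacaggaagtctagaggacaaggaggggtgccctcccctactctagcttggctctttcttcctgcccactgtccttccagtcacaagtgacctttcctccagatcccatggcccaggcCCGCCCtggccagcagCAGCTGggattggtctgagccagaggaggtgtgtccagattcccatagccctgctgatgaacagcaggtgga
Slc25a42: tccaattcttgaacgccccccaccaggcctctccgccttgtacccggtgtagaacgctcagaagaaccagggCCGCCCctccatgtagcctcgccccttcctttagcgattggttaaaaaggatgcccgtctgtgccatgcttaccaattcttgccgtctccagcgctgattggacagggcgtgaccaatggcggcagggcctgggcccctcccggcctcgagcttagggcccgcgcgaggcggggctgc
Slc25a48: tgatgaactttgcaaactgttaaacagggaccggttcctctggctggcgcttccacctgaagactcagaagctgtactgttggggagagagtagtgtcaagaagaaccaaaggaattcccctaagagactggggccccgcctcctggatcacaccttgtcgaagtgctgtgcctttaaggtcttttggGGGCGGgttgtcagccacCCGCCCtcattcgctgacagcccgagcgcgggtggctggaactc
The windows lie at chr2:71367756-71368005 (minus strand), chr2:32424067-32424316 (minus strand, the start farthest downstream of 3), chr4:141623835-141624084 (minus strand), chr8:70212282-70212531 (minus strand) and chr13:56438105-56438354 (plus strand).

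The window of Slc25a12 held none of these patterns, neither the E-box CAGCTG nor MEF2. Other forms of the E-box were not searched. That of Slc25a25 held the cyclic AMP response element beginning 150 bases before the start, which 1.55% of all 32851 windows and 2 of 46 member windows (4.35%) hold. The other windows of Slc25a25 did not hold it. Slc25a34 held the E-box 72 bases before the start, a pattern found in 13.0% of all windows. GC boxes were in the windows of Slc25a34, Slc25a42, Slc25a48 and Slc25a25, in 69.6% of all member windows and in 32.7% of all windows. The estrogen-related receptor pattern was in 0 of 46 member windows and in 1.14% of all. A match is a description of letters and shows no binding.

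Among genes that work beside the carriers 0 passed the threshold by limma in every list, with intervals too wide to show that they were level. Of 18 other genes of mitochondrial membrane transport 11 were higher and 7 lower (median 0.04), with the calcium uniporter Mcu at −0.20 (−0.50 to 0.10) and the ABC transporter Abcb10 at −0.25 (−0.63 to 0.13). Of 10 genes that bring carriers into the inner membrane 5 were higher (0.03), led by the import receptor Tomm20 at 0.18 (−0.07 to 0.42) and by Timm29 at 0.18 (−0.14 to 0.49). Ucp1 and Ucp3 differed by 0.07 (−0.20 to 0.35) and 0.26 (−0.09 to 0.61), and Ucp2 was not analysed here.

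Genes of pathways linked to the carriers were described in the same way. Of 4 carnitine shuttle genes 2 were higher (median −0.01), with the carnitine transporter Slc22a5 at −0.05 (−0.41 to 0.31) and Cpt2 at −0.03 (−0.33 to 0.26). Of 9 genes listed around citrate, malate and fatty acid synthesis 7 were lower (−0.07). Acetyl-CoA synthetase Acss2 was at −0.35 (−0.85 to 0.14) and citrate synthase Cs at 0.15 (−0.08 to 0.39). Of 6 enzymes of the redox shuttles 3 were higher (0.03), with the mitochondrial glycerol phosphate dehydrogenase Gpd2 at 0.07 (−0.14 to 0.29) and the cytosolic aspartate aminotransferase Got1 at 0.25 (−0.62 to 1.12). In branched-chain amino acid breakdown, which follows Slc25a44, 4 of 7 were higher (0.03), with the phosphatase Ppm1k, which activates the pathway, at 0.42 (−0.08 to 0.92) and Dld at 0.10 (−0.11 to 0.32). Of 9 genes listed around iron uptake, heme and iron-sulfur clusters, which are linked to the mitoferrins, 5 were higher (0.01). The transferrin receptor Tfrc was at 0.54 (−0.09 to 1.17) and Cpox at 0.16 (−0.23 to 0.56).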

How the data were processed

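Brown fat RNA (200 ng per mouse) of 3 WT and 5 Abhd15 KO mice was hybridised to Affymetrix Mouse Gene 2.0 ST arrays of 1 colour. The deposited values are log2 signals, 1 per probe set and array, made by the authors with RMA and oligo per the submitters' processing notes, while the design text per the labels names Expression Console; versions and genome build are not given in the sources used here. RMA quantile-normalizes the arrays, which hides any shift common to most genes. Array medians of the 41345 probe sets lay between 3.00 and 3.04, and correlations between arrays between 0.964 and 0.975. Arrays give no read depth, and their number limits the precision.

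Of the probe sets, 23521 had 1 symbol in the platform annotation, 1814 several (not used) and 16010 none; 23328 matched a RefSeq gene (GRCm38.p6) by Entrez identifier. The probe set of highest mean stood for a gene. The dim limit of 2.88 is the 95th percentile of 1383 olfactory and vomeronasal receptor probe sets. Genes exceeding it in 3 or more arrays (13246) were fitted with limma 3.58.1 in R 4.3.3 (lmFit, eBayes, 1 group term), with Benjamini-Hochberg adjustment over all of them at 0.05. Differences are Abhd15 KO minus WT. The muscle fit added the mean of 26 muscle genes, each centred, and left those genes out (13220 genes). Exact two-sided permutation tests used all 56 splits of the arrays or, for correlations, all 40320 pairings. Steps were tested on simulated data.

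Members, gene lists, tests and alternatives were chosen with earlier results of these data known. Written down in advance of this fit were 14 members to give in every array, with the 5 of lowest p per direction, the 5 of largest SD, and the 2 of lowest p per pathway list; other genes named were chosen after their values were seen. Alternatives were a block for replicate number, other filters on dim genes, normalization, centring, variance models, array weights, probe set means, the muscle mean as covariate, other thresholds and leaving out arrays. Pairing of the arrays by replicate number was not seen (correlations of deviations −0.26, −0.10 and 0.02), which 3 such values cannot exclude.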

Additional observations from a re-analysis of the deposited data

How the results depend on the processing

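By limma, 0 Slc25a genes and 0 of all genes passed the adjusted threshold between the groups under every alternative, leaving out each array included. The smallest adjusted p was 0.182 (without WT replicate 1). The number of genes with an unadjusted limma p under 0.05 went from 68 of 13246 (minimum fold of 1.2) to 1019 of 22180 (no filter on dim genes). Among the 34 to 46 members tested it was 0 to 1. Leaving out each array gave 17 to 27 members higher of 39, and a median member difference of −0.01 to 0.06. Of 478 differences of 23 members under the alternatives 435 kept their sign, and 43, in 12 members, did not. The filters on dim genes, variance models, probe set means and thresholds cannot change the difference of a member. Their rows are counted among the 435, so that count does not measure stability. With the replicate number as a replicate block the difference was 0.014 for Slc25a20, 0.036 for Slc25a1, 0.074 for Slc25a10, 0.028 for Slc25a11 and −0.008 for Ucp1. Replicate numbers found only among the KO-labelled arrays took terms of their own in that block, so those arrays did not enter the difference. Under that block Slc25a33 was at 0.10, from 0.46, and Slc25a12 at −0.69, from −0.41, a change that includes the loss of those arrays. Without WT replicate 2 and Abhd15 KO replicate 1 together the difference was 0.021 for Slc25a20, 0.058 for Slc25a1, 0.045 for Slc25a4, 0.013 for Slc25a5, 0.064 for Slc25a10 and 0.021 for Slc25a45. Slc25a4 read 0.0017 with array weights and 0.0001 with the muscle mean as covariate, Slc25a5 0.0082 after quantile normalization again, and Slc25a48 −0.032 with the muscle covariate. Leaving out each array gave ranges of −0.28 to 0.062 for Slc25a1, −0.052 to 0.048 for Slc25a4, −0.045 to 0.018 for Slc25a5, −0.20 to 0.13 for Slc25a10, −0.087 to 0.030 for Slc25a11, −0.085 to 0.056 for Slc25a20, −0.067 to 0.43 for Slc25a25, −0.30 to 0.24 for Slc25a30, −0.51 to 0.22 for Slc25a34, −0.32 to 0.015 for Slc25a42, −0.40 to 0.016 for Slc25a45, −0.12 to 0.26 for Slc25a48 and −0.0052 to 0.12 for Ucp1. Without a change of sign, they were −0.10 to −0.02 for Slc25a3, −0.74 to −0.03 for Slc25a12, −0.29 to −0.08 for Slc25a18, 0.27 to 0.63 for Slc25a33, 0.10 to 0.37 for Slc25a53 and 0.15 to 0.32 for Ucp3. Along the muscle mean, leaving out each array gave 16 to 54 genes called, 0 to 1 member, and a slope of Slc25a12 of 0.40 to 0.51. The replicate block also left the KO-labelled arrays without a WT array of the same number out of the slope. Little then remained to estimate the spread from. That block gave 0 genes and 0 members called there, with a slope of 0.36 for Slc25a12. An unadjusted limma p under 0.05 was found for 394 of 13220 genes and 3 of 39 members. The number of arrays and, for Slc25a13, Slc25a14, Slc25a18, Slc25a25, Slc25a29, Slc25a53 and the members not tested, the signal over background limit what can be seen.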
